A study of Mus musculus with 14 samples.

Results

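The loci of the growth factors and receptors that control myeloid cells were examined in 14 transcription factor peak lists. Their 8 members were Csf1r, Csf1, Csf2ra, Csf2rb, Csf2rb2, Csf3r, Kit and Flt3, out of 21774 protein-coding genes in the RefSeq annotation of GRCm38. A peak belonged to a member when it overlapped the gene span or the 30 kb on either side. By this rule, 180 of the 158488 peaks lay at the members. One of the 8, Csf1, encodes a ligand and not a receptor, so the loci are called growth factor and receptor loci here. The files analysed here held peak positions and no expression values, and the identity of the sorted cells was not checked against marker genes.

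Myeloid growth factors are secreted proteins that keep blood precursors and mature myeloid cells alive and direct their differentiation. CSF1R, KIT and FLT3 are receptor tyrosine kinases of a shared family, and CSF1 is the ligand of CSF1R, the receptor on which most macrophages depend. The granulocyte-macrophage and granulocyte factors instead signal through cytokine receptors without kinase activity, which include CSF2RA, the common beta chain CSF2RB with its mouse paralogue CSF2RB2, and CSF3R. PU.1 (encoded by Spi1) and C/EBPβ are transcription factors (TFs) known for their part in macrophage gene regulation.

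The peaks came from ChIP-seq, in which DNA bound by a factor is recovered with an antibody and sequenced, in cells differentiated from a mouse ES cell line of strain 129 that carries a Brachyury-GFP reporter. The stages were mesoderm (MES, Bry.GFP+ and FLK1-), hemangioblast (HB, Bry.GFP+ and FLK1+), hemogenic endothelium (HE, Bry.GFP+, Tie2+/Ckit+/CD41-), hematopoietic progenitors (HP, CD41+) and macrophages (MAC, CD11b+). Each list held 1 factor at 1 stage, so there were no replicates and no test of a difference was possible. C/EBPβ was mapped at all 5 stages, PU.1 and RUNX1 in HP and MAC, GATA2 in HB and HP, GATA1 and GFI1B in HP, and ELK4 in MES. HE cells were few, and carriers (mRNA and recombinant histone 2B) were used in their immunoprecipitation. All cells descended from the same reporter line.

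The lists differed widely in length, from 72 peaks for MAC RUNX1 to 82866 for MAC PU.1, with 55471 for MAC C/EBPβ. The authors set the calling threshold by eye for each list, so that a longer list does not mean more binding, and the absence of a peak means only that none was called. Counts at the loci are therefore given beside the share of all coding genes that had a peak under the same rule. For MES C/EBPβ, HB C/EBPβ, HB GATA2 and MAC RUNX1, the study listed no target enriched by quantitative PCR before sequencing. Intervals on shares are exact Clopper-Pearson 95% intervals and cover counting error only.

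All 8 loci had peaks in MAC PU.1 and in MAC C/EBPβ, but those lists also reached 81.3% and 77.3% of coding genes. In HP PU.1, 5 of the 8 loci had a peak (44.1% of coding genes), namely Csf1, Csf1r, Csf2ra, Csf2rb2 and Csf3r. In HP C/EBPβ, 4 had one (17.9% of coding genes), namely Csf1, Flt3, Csf2rb and Csf3r. With only 8 loci, of which Csf2rb and Csf2rb2 share part of their windows, these counts are a description. HP RUNX1 had a peak at Csf1 and Flt3, which is 2 of 8 loci (9.43% of coding genes).

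Each of the remaining lists had a peak at 2 loci or fewer. MES C/EBPβ had a peak at 2 loci, Csf1r and Csf2rb2 (7.83% of coding genes). HB C/EBPβ had a peak at 1 locus, Csf1 (5.14%), MES ELK4 at 1, Csf3r (5.75%), and HP GFI1B at 1, Csf3r (14.4%). No member had a peak in HB GATA2 (0.423% of coding genes), HE C/EBPβ (0.850%), HP GATA1 (2.23%), HP GATA2 (4.19%) or MAC RUNX1 (0.602%), 5 lists in which few genes of any kind had one. Across all combinations of the 8 loci and 14 lists, 32 held a peak, and 16 of these 32 came from the 2 long MAC lists.

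**Figure D1:**
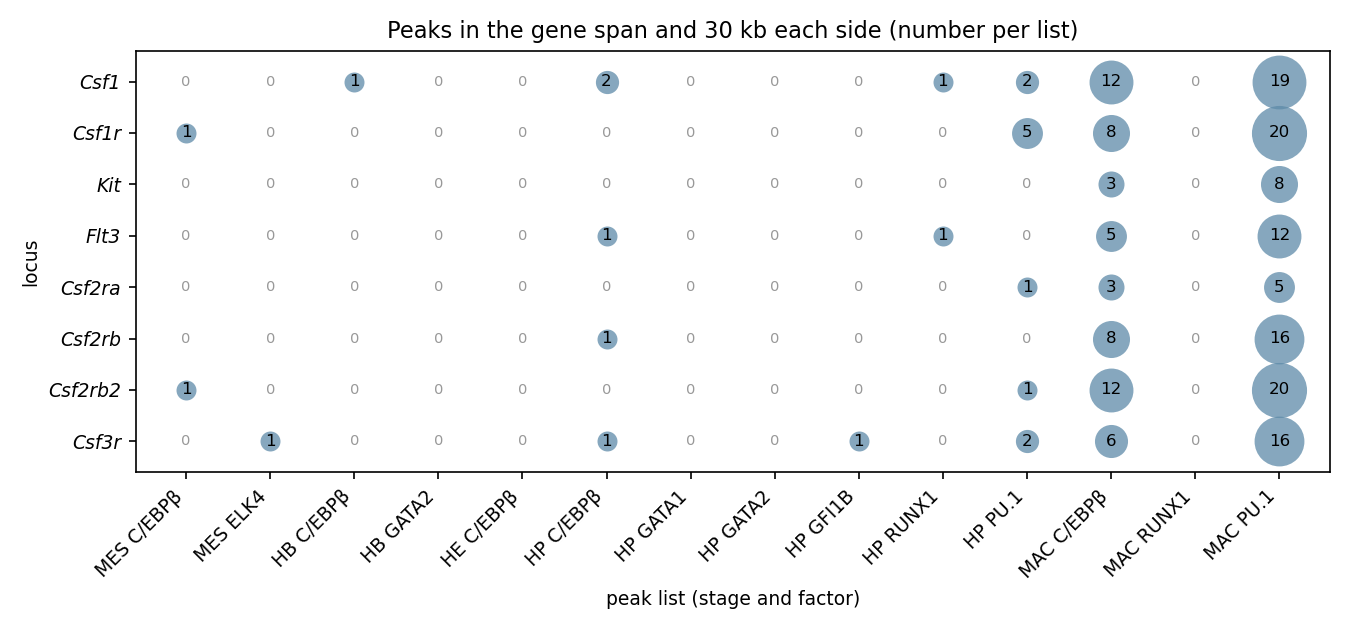
Number of peaks in the gene span and 30 kb each side, for each of the 8 loci (rows) and each of the 14 lists (columns), with the circle area growing with the count. Every locus has peaks in MAC PU.1 (5 to 20) and MAC C/EBPβ (3 to 12), Kit has none in any other list, and Csf1r has 5 peaks in HP PU.1.

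The members differed in how many lists reached them. Csf1 and Csf3r had peaks in 6 lists each, a number that 6.46% of coding genes reached or exceeded. Csf1r, Csf2rb2 and Flt3 had peaks in 4 lists, and Csf2ra and Csf2rb in 3. Kit had peaks in 2 lists only, the long MAC lists, and 77.3% of coding genes had peaks in at least as many. The median over the 8 loci was 4.00 lists, beside 3.00 over all coding genes. These numbers depended on the rule. Csf1 had peaks in 3 lists with 10 kb on each side and in 3 with the gene span alone, and Csf3r in 4 and 3. When each peak was given to the coding gene with the nearest start site, Csf1 had peaks in 7 lists, Csf3r in 4, Kit in 4, Csf2ra in 5 and Flt3 in 2, and with 100 kb on each side Kit again had peaks in 4.

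Because gene lengths differ, MAC peaks were also counted per 100 kb of window. MAC PU.1 peaks were dense at Csf2rb2 (24.0 per 100 kb), Csf1 (23.9) and Csf1r (23.4), and fewer than 1% of coding genes were as dense as any of these 3 (0.762%, 0.817% and 0.960%). Csf3r (19.6) and Csf2rb (18.8) followed, with 2.65% and 3.40% of coding genes as dense. Flt3 (9.25), Csf2ra (7.02) and Kit (5.64) lay nearer the median of all coding genes, which was 5.32. The median of the 8 loci was 19.2. The rank of Csf2rb2 rested on the window, since its start site was the nearest for only 9 of its 20 MAC PU.1 peaks, and that of Csf2rb for 7 of its 16. Counted by nearest start site, Csf1 had 22 MAC PU.1 peaks, Kit 20, Csf1r 18 and Csf2rb2 9.

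For MAC C/EBPβ, Csf1 and Csf2rb2 were again at the upper end, in the other order, and Csf1r was not. Csf1 had 15.1 peaks per 100 kb and Csf2rb2 14.4, and 0.606% and 0.877% of coding genes were as dense. The place of Csf2rb2 again rested on the window: by nearest start site it had 5 MAC C/EBPβ peaks in place of 12, fewer than Csf1 (16), Kit (11), Csf1r (8) and Csf3r (6). Csf2rb (9.39), Csf1r (9.35) and Csf3r (7.36) were intermediate. Csf2ra (4.21) and Flt3 (3.85) were close to the median of 3.16 over all coding genes, and Kit (2.12) was below it. The windows of Csf2rb and Csf2rb2 overlap and share 11 MAC PU.1 and 5 MAC C/EBPβ peaks, so these 2 loci are not independent.

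**Figure D2:**
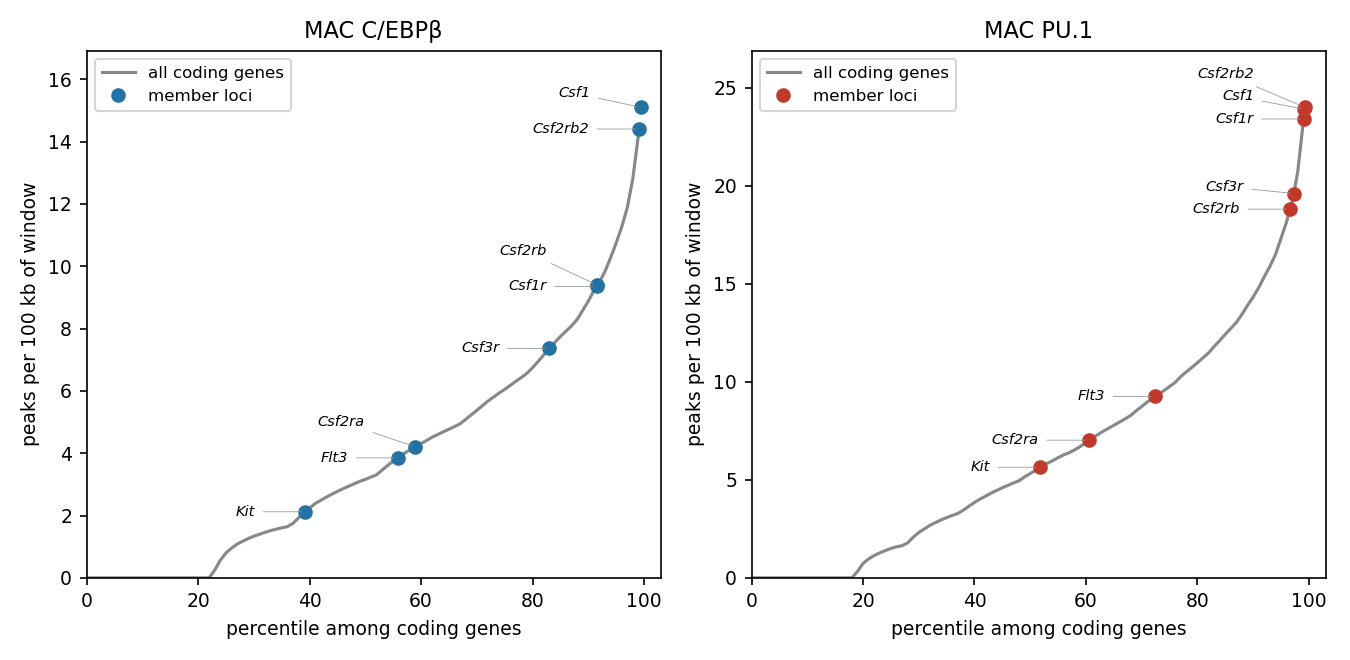
Peaks per 100 kb of window against the percentile among all coding genes, for MAC C/EBPβ (left) and MAC PU.1 (right). The line gives all 21774 coding genes and the points the 8 loci, with Csf1 and Csf2rb2 near the top in both panels and Kit near the median for PU.1 (5.64 against 5.32) and below it for C/EBPβ (2.12 against 3.16).

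Csf1 lies at chr3:107741048-107760469 on the minus strand. The protein is the ligand of CSF1R and of no other member. Its window held no other coding gene, and each of the 37 peaks there had Csf1 as the nearest coding gene by start site. Most of the MAC binding lay upstream: 11 of 19 MAC PU.1 peaks and 7 of 12 MAC C/EBPβ peaks were before the gene. At 27.8 kb upstream, C/EBPβ peaks of HB, HP and MAC overlapped, the only region at the 8 loci with a peak of HB. At 23.0 kb upstream, HP C/EBPβ, MAC C/EBPβ and MAC PU.1 peaks overlapped.

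The 2 upstream C/EBPβ regions at Csf1 are shown because they were bound in HP as well as in MAC, and both held a C/EBP consensus at the peak centre. The consensus searched was TTGCNNAA, on both strands. Capitals mark the matches, in the central 200 bp of the HP C/EBPβ peaks (chr3:107788201-107788400 and chr3:107783416-107783615, GRCm38, plus strand). In the first, the match was centred 9 bp from the peak centre, and in the second 2 bp from it.
Csf1, 27.8 kb upstream: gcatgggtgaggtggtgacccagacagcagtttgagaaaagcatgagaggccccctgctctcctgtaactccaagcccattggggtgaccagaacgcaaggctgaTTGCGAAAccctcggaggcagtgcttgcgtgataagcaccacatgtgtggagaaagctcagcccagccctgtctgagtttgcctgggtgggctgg
Csf1, 23.0 kb upstream: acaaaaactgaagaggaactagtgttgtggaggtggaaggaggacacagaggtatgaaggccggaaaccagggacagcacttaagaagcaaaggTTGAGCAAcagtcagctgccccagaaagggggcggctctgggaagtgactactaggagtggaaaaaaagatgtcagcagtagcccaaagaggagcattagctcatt
In windows of the same length, the match was present in 59.8% of all HP C/EBPβ peaks and in 8.38% of windows 2 kb to either side of them.

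PU.1 was called at 2 places of the Csf1 locus in HP, 12.4 kb upstream and 31.9 kb downstream of the start site, and both were on MAC PU.1 peaks. The downstream peak, in the window beyond the gene end, held the PU.1 consensus GAGGAAGT on the minus strand. It is shown in capitals in the central 200 bp (chr3:107728459-107728658, plus strand), where it was centred 3 bp from the peak centre.
Csf1, 31.9 kb downstream: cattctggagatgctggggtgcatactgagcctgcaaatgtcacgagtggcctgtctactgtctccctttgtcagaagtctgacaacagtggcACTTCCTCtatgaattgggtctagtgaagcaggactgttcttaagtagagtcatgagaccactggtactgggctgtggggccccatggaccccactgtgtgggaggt
The same letters occurred in 40.8% of all HP PU.1 peaks at this width and in 1.44% of their flanking windows. The upstream peak lacked them. HP RUNX1 was called once at Csf1, in intron 8, 17.2 kb from the start site, and no other list had a peak there.

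Csf1r lies at chr18:61105572-61131139 on the plus strand, next to Pdgfrb, which encodes another receptor tyrosine kinase. Its window held 20 MAC PU.1 peaks, 8 MAC C/EBPβ peaks, 5 HP PU.1 peaks and 1 MES C/EBPβ peak. The density of HP PU.1 peaks (5.84 per 100 kb) was reached by 0.850% of coding genes. The 5 HP PU.1 peaks were centred 249 bp, 3.15 kb, 15.2 kb, 26.0 kb and 51.2 kb downstream of the start site, and all 5 overlapped a MAC PU.1 peak. The 2 farthest lay inside the neighbouring gene Hmgxb3, and Csf1r had the nearest start site for 4 of the 5. HP C/EBPβ was not called anywhere in the window.

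At 2 of these 5 places, MAC C/EBPβ was also called. The first was the start site itself, where HP PU.1, MAC PU.1 and MAC C/EBPβ peaks merged into a region of 463 bp. The second was intron 2, where the same 3 lists merged into a region of 589 bp centred 3.25 kb downstream. Intron 2 of Csf1r is known for a strong macrophage enhancer, called the Fms intronic regulatory element. Neither region held the PU.1 consensus GAGGAAGT, and none of the 5 HP PU.1 peaks did. Across MAC PU.1, 9 of the 20 peaks lay in introns, 6 upstream and 4 downstream, with those 4 inside the neighbouring gene Hmgxb3. The MES C/EBPβ peak lay 28.2 kb upstream, inside Pdgfrb.

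**Figure D3:**
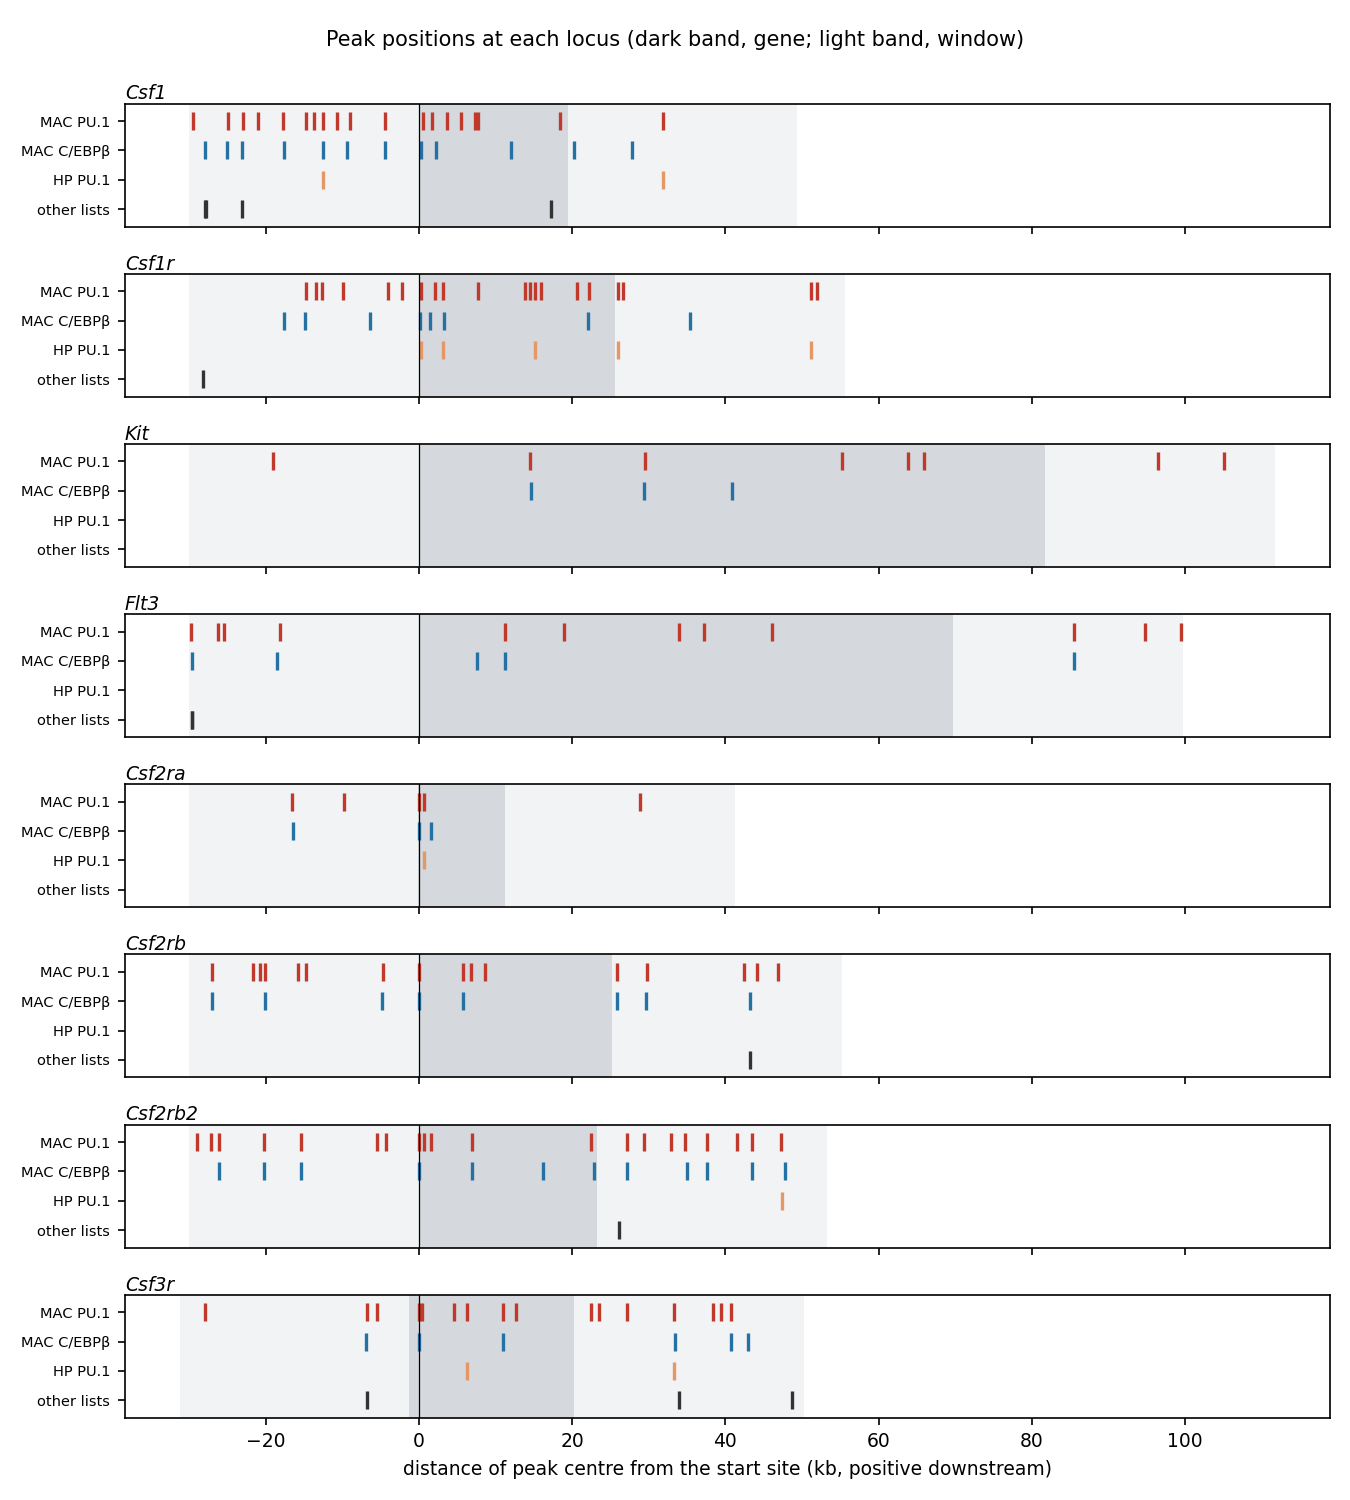
Centre of each peak relative to the first curated start site of each locus (kb, positive downstream), in rows for MAC PU.1, MAC C/EBPβ, HP PU.1 and the other 11 lists together. The gene is the dark band and the window the light band. HP PU.1 marks stand below MAC PU.1 marks in every case (11 of 11), and the start sites of Kit and Flt3 have no mark within 2 kb.

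Kit lies at chr5:75574987-75656722 on the plus strand and encodes the receptor of stem cell factor, which acts in blood precursors and mast cells. The HE population was sorted for KIT protein. The HE C/EBPβ list, which reached only 0.850% of coding genes, had no peak at the Kit gene. Nor did any HP list within the 30 kb window, with GATA1, GATA2, GFI1B, RUNX1, PU.1 and C/EBPβ all examined there. Those lists reached from 2.23% (GATA1) to 44.1% (PU.1) of coding genes. The 11 peaks at Kit came from MAC, 8 of PU.1 and 3 of C/EBPβ. The window left out many peaks farther away: by nearest start site, Kit had 20 MAC PU.1 and 11 MAC C/EBPβ peaks, and peaks of 2 more lists. The nearest to the start site were PU.1 at 14.5 kb and C/EBPβ at 14.7 kb downstream, which overlapped in intron 1. A second overlapping pair lay 29.4 kb (C/EBPβ) and 29.5 kb (PU.1) downstream in the same intron.

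The peak that lay upstream of Kit and the PU.1 peak nearest its start site are shown, since they differ in the sequences they hold. In the first (19 kb upstream, chr5:75555886-75556085, plus strand), capitals mark a C/EBP match and then a PU.1 match, the latter centred 9 bp from the peak centre. In the second (intron 1, chr5:75589386-75589585, plus strand), which had no GAGGAAGT, capitals mark a match of the ELK4 consensus CCGGAAGT on the minus strand and of the RUNX consensus TGTGGTT. The ELK4 and PU.1 letters share the core GGAAGT.
Kit, 19 kb upstream: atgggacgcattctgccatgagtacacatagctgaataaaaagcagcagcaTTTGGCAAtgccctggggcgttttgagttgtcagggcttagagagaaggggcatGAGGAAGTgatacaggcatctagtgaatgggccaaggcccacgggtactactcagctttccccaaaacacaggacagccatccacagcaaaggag
Kit, 14.5 kb downstream: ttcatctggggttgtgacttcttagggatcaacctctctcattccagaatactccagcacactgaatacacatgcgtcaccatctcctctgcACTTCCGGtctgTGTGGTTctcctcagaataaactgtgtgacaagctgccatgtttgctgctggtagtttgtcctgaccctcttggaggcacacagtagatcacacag
At 200 bp, 23.5% of all MAC PU.1 peaks held the PU.1 letters, 1.26% the ELK4 letters, 5.70% the RUNX letters and 10.1% the C/EBP letters. The corresponding shares in flanking windows were 1.39%, 0.211%, 5.21% and 7.84%, so the RUNX and C/EBP letters were nearly as common beside the peaks as in them.

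Flt3 lies at chr5:147330741-147400489 on the minus strand and encodes a receptor of lymphoid, myeloid and dendritic cell precursors. Its window held 12 MAC PU.1 and 5 MAC C/EBPβ peaks, and 1 peak each of HP C/EBPβ and HP RUNX1. The HP peaks were not close to Flt3: they lay 29.6 kb upstream, 28 bp and 29 bp from the start site of Pan3, a gene for a subunit of a poly(A) nuclease. MAC C/EBPβ and MAC PU.1 peaks overlapped them, which made this the only region of the 126 at the 8 loci that was shared by 4 lists. It held none of the consensus sequences searched.

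Within the Flt3 gene, the peaks nearest the start site were MAC C/EBPβ at 7.62 kb and a pair of MAC PU.1 at 11.2 kb and MAC C/EBPβ at 11.3 kb, all in intron 1. The pair is shown as the only place inside the gene where both factors were called. Capitals mark a RUNX match on the minus strand and a C/EBP match in the central 200 bp of the PU.1 peak (chr5:147389177-147389376, plus strand), and no PU.1 consensus was found in it.
Flt3, 11.2 kb downstream: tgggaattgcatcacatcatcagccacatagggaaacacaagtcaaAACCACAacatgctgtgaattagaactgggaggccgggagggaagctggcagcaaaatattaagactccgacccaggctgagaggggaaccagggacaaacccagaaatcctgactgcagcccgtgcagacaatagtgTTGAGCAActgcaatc
Of the 12 MAC PU.1 peaks in the window, 5 lay inside a neighbouring coding gene, and for 4 of the 12 the start site of Flt3 was the nearest.

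Csf2ra, at chr19:61217191-61228461 on the minus strand, encodes the ligand-specific chain of the granulocyte-macrophage receptor. It had the fewest peaks of the 8 loci, 9 in all. MAC PU.1 was centred 1 bp and MAC C/EBPβ 37 bp from the start site. A second MAC PU.1 peak at 674 bp overlapped the only HP PU.1 peak, at 691 bp, in intron 1. A further pair of MAC PU.1 and MAC C/EBPβ lay 16.5 kb upstream, shown here (chr19:61244811-61245010, plus strand) as the only Csf2ra peaks with the PU.1 consensus, which capitals mark.
Csf2ra, 16.5 kb upstream: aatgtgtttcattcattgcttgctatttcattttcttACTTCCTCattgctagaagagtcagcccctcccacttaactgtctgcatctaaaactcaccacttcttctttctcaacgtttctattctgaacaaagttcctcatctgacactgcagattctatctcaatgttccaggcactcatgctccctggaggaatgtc
The match was 59 bp from the peak centre, farther than the PU.1 matches shown for Csf1 and for the upstream peak of Kit.

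Csf2rb (chr15:78325800-78351001, plus strand) and Csf2rb2 (chr15:78282507-78305721, minus strand) lie head to head and arose by duplication. CSF2RB is the common beta chain of the receptors for GM-CSF, IL-3 and IL-5, and CSF2RB2 is specific to IL-3 in the mouse. Aligned with each other, 90.7% of the Csf2rb span and 98.8% of the Csf2rb2 span were covered, at 90.0% identity. The authors kept uniquely placed reads only. Of all 50-base words in Csf2rb, the length of the study's reads, 14.4% also occur in Csf2rb2, and a read of such a word has no unique place.

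In MAC, both start sites carried overlapping peaks of PU.1 and C/EBPβ. At Csf2rb they were centred 26 bp and 36 bp from the start site, and at Csf2rb2 26 bp and 6 bp. The MAC PU.1 peaks of 400 bp aligned over 382 columns at 93.2% identity, and shared 22 words of 50 bases. Their centres are shown on the strand of each gene, 30 bases each (Csf2rb, chr15:78325961-78325990, plus strand; Csf2rb2, chr15:78305686-78305715, minus strand), with C/EBP and PU.1 matches in capitals.
Csf2rb: gcTTGCGAAAgggcactggcaACTTCCTCa
Csf2rb2: gcttgtgaaagggcactggcaACTTCCTCa
The 2 stretches were identical at 29 of 30 bases. The exception was C6T, counted from 1 at the 5′ end with the base of Csf2rb first, which lies in the C/EBP match of Csf2rb, so that Csf2rb2 had no match there. Both genes had a MAC C/EBPβ peak at this place. The PU.1 match began 8 bp before the nearer annotated start site in Csf2rb and 27 bp after it in Csf2rb2, where it lies in the 5′ UTR.

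Outside the shared part of their windows, the paralogues had different lists. Csf2rb had an HP C/EBPβ peak 43.2 kb downstream, overlapped by MAC C/EBPβ, and the nearest start site there was that of Tex33. Its central 200 bp (chr15:78369091-78369290, plus strand) are shown for their 2 C/EBP matches, in capitals.
Csf2rb, 43.2 kb downstream: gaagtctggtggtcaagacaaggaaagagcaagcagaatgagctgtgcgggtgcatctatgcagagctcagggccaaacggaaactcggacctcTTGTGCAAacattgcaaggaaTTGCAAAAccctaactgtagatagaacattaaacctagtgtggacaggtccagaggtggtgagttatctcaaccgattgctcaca
At least 2 matches were present in 7.84% of all HP C/EBPβ peaks at this width, a share that only describes the list, because the region was shown for these matches. Csf2rb2 had an HP PU.1 peak 47.3 kb downstream and inside Ncf4, which encodes a subunit of the phagocyte NADPH oxidase, and a MES C/EBPβ peak 26.1 kb downstream. A MAC PU.1 peak overlapped the first, and no peak of another list overlapped the second. The 5 MAC C/EBPβ peaks in the shared part were all on MAC PU.1 peaks, as were 5 of the other 7 at Csf2rb2 and 2 of the other 3 at Csf2rb.

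Csf3r lies at chr4:126023441-126044975 on the plus strand and encodes the receptor of granulocyte colony-stimulating factor. MAC C/EBPβ and MAC PU.1 peaks overlapped at its start site, centred 4 bp and 27 bp upstream. The HP C/EBPβ peak lay 6.81 kb upstream on MAC peaks of both factors. Its central 200 bp (chr4:126017747-126017946, plus strand) are shown because they held the letters TTGCACAA, a form of the C/EBP consensus, 3 times, in capitals, starting at bases 64, 97 and 113.
Csf3r, 6.81 kb upstream: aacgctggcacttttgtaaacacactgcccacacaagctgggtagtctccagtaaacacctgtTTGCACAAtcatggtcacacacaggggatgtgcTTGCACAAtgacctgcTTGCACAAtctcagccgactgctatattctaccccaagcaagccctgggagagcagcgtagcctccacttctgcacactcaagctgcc
The middle match was at the peak centre, 0 bp away, and the last overlapped a match of the GFI1B consensus AATCNCNGC. At least 3 C/EBP matches at this width were found in 20 of the 2716 HP C/EBPβ peaks (0.736%) and in 0.330% of MAC C/EBPβ peaks. These shares too are a description only, as the region was shown for its 3 matches.

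HP PU.1 was called at 2 places of the Csf3r locus, and both held the PU.1 consensus. The peak in intron 4, 6.28 kb downstream, was centred on the same base as a MAC PU.1 peak. Its central 200 bp are shown (chr4:126030837-126031036, plus strand) with the match in capitals, 7 bp from the peak centre.
Csf3r, 6.28 kb downstream: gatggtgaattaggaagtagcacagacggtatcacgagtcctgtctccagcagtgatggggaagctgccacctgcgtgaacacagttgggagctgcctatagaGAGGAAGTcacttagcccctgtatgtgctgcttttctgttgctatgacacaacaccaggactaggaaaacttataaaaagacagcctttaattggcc
The second HP PU.1 peak lay 33.3 kb downstream and 626 bp from the start site of the neighbour Oscp1. The MES ELK4 peak lay 35 bp from that start site, and the HP GFI1B peak, which held a GFI1B consensus, also lay inside Oscp1. Thus 2 of the 6 lists with a peak at Csf3r reached only its neighbour. Of the 16 MAC PU.1 peaks, 7 lay inside Oscp1 or Mrps15, and Csf3r had the nearest start site for 8.

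Start sites divided the members into those with both MAC factors and those with neither. Peaks of MAC PU.1 and MAC C/EBPβ centred within 2 kb of a curated start site were found at 6 of the 8 loci, Csf1, Csf1r, Csf2ra, Csf2rb, Csf2rb2 and Csf3r, and at each of the 6 a peak of one factor there overlapped a peak of the other. Among all coding genes, 29.9% had both, 50.0% had MAC PU.1 and 36.6% had MAC C/EBPβ. Kit and Flt3 had neither. In HP, PU.1 was within 2 kb of the start site at 2 of 8 loci, Csf1r and Csf2ra (9.40% of coding genes), and C/EBPβ at 0 of 8 (3.97%).

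For the factors mapped in both HP and MAC, it was asked whether progenitor peaks at the loci were also macrophage peaks. All 11 HP PU.1 peaks were on a MAC PU.1 peak (100%, interval 71.5 to 100), as were 97.0% of the whole HP list. All 5 HP C/EBPβ peaks were on a MAC C/EBPβ peak (interval 47.8 to 100), as were 91.4% of that list. In the other direction, 11 of 105 MAC PU.1 peaks at the loci (10.5%, 5.35 to 18.0) were on an HP PU.1 peak, beside 12.8% over the whole list. The shares of the whole lists lay within all 3 intervals. No HP PU.1 peak at the loci was on an HP C/EBPβ peak (0 of 11, upper limit 28.5%), with 3.71% in the whole list. HP RUNX1 peaks at Csf1 and Flt3 had no counterpart in MAC RUNX1, a list of 72 peaks.

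The 2 MAC factors shared many of their sites at the loci. Of 52 MAC C/EBPβ peaks, 36 were on a MAC PU.1 peak (69.2%, 54.9 to 81.3), beside 42.5% of the whole list, which lies below the interval. With an overlap of at least 200 bp, it was 29 of 52 (55.8%, 41.3 to 69.5), beside 35.6% of the whole list, again below the interval. The intervals treat the peaks of a list as independent, although they lie at only 8 loci and Csf2rb and Csf2rb2 share peaks. Where a whole-list share falls against an interval is therefore a description and not a test. Of 105 MAC PU.1 peaks, 36 were on a MAC C/EBPβ peak (34.3%, 25.3 to 44.2), beside 28.5%, which lies within the interval. The share of MAC C/EBPβ peaks, at the overlap of 1 bp, ranged over loci from 50.0% at Csf1r (4 of 8) to 87.5% at Csf2rb (7 of 8), and each locus had too few peaks to separate them. The loci also held more MAC PU.1 peaks per 100 kb than the median coding gene (19.2 against 5.32), and the part of this density in the shared sites was not tested.

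Merged wherever they overlapped, the peaks of the 8 loci formed 126 regions. Of these, 62 held MAC PU.1 only, 29 both MAC factors, 14 MAC C/EBPβ only, and 21 a peak of any other list. The count by number of lists was 81 regions in 1 list, 37 in 2, 7 in 3 and 1 in 4. Csf1 and Csf1r had 25 regions each by nearest start site, and the class of both MAC factors took 5 of them at Csf1 and 2 at Csf1r. At Csf2rb and Csf2rb2 it took 5 of 11 and 7 of 18.

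**Figure D4:**
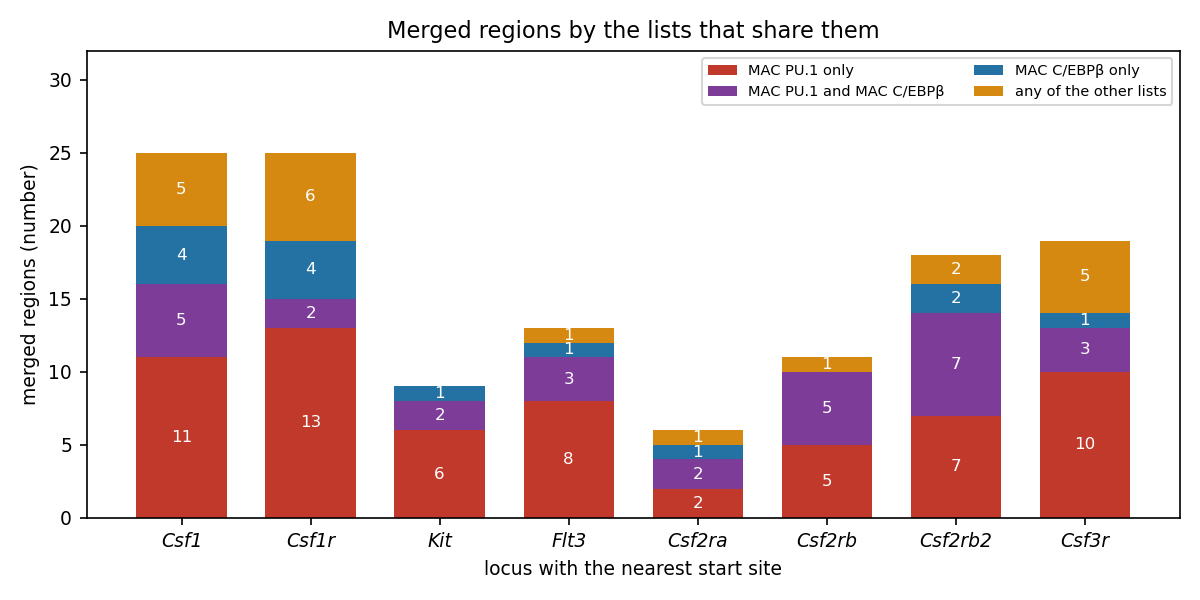
Number of merged regions at each locus, assigned to the member with the nearest start site and stacked by the lists that share them. MAC PU.1 alone forms the largest class at Csf1 (11 of 25), Csf1r (13 of 25), Kit (6 of 9), Flt3 (8 of 13) and Csf3r (10 of 19), and Kit has no region with any other list.

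How many MAC peaks at the loci held the consensus of the factor itself depended on the letters searched. GAGGAAGT was present in 26 of 105 MAC PU.1 peaks (24.8%, 16.9 to 34.1), beside 24.4% of the whole list and 5.24% of windows 2 kb either side of the peaks at the loci. TTGCNNAA was present in 16 of 52 MAC C/EBPβ peaks (30.8%, 18.7 to 45.1), beside 41.9% of the whole list and 20.2% of the flanking windows at the loci. With the shorter letters GGAAGT, 70 of 105 MAC PU.1 peaks held a match (66.7%, beside 67.6% of the whole list), and with 4 strict forms of the C/EBP letters 5 of 52 MAC C/EBPβ peaks did (9.62%, beside 14.9%). For TTGCNNAA the interval includes both the list and the flanks at this width of 400 bp. In the central 200 bp it was 14 of 52 peaks (26.9%, 15.6 to 41.0), beside 36.1% of the whole list, which lies within the interval, and 9.62% of the flanking windows at the loci (10 of 104, 4.71 to 17.0), which lies below it. The intervals of peaks and flanks still overlapped. In HP, 3 of 11 PU.1 peaks and 4 of 5 C/EBPβ peaks held their consensus, with 42.1% and 64.0% in the whole lists.

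Where a match was present, it was mostly near the peak centre. In peaks with several matches, the match closest to the centre was taken, which shortens the distances. In MAC PU.1, 22 of the 26 peaks with a match had it within 50 bp, with a median distance of 6 bp, beside 89.8% and 10.0 bp in the whole list. In MAC C/EBPβ it was 14 of 16, with a median of 13.0 bp, beside 72.1% and 22 bp. The 4 HP C/EBPβ peaks at Csf1, Csf2rb and Csf3r had theirs within 9 bp.

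**Figure D5:**
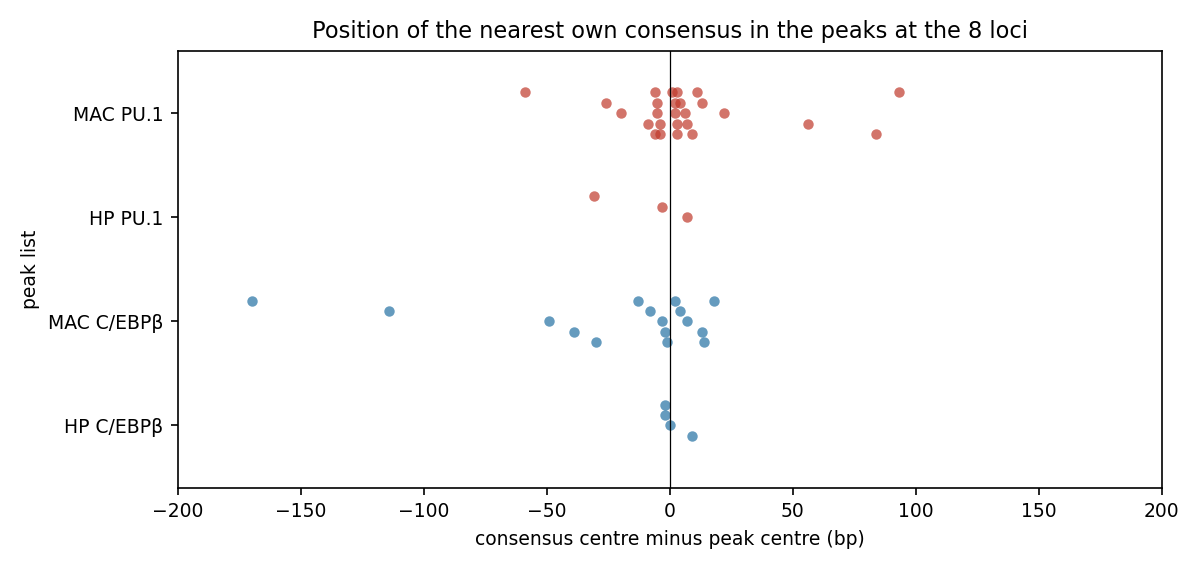
Distance in bp from the peak centre to the centre of the nearest match of the factor's own consensus, with 1 point for each peak at the 8 loci that holds one (26, 3, 16 and 4 peaks from top to bottom). The vertical scatter within a row carries no value. Points gather around 0, and the farthest is 170 bp away in MAC C/EBPβ.

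Ligands and receptors of the same pathways that are not members were counted for comparison. They were the ligands Il34, Csf2, Csf3, Kitl, Flt3l and Il3 and the receptors Il3ra, Il5ra, Epor, Il6ra and Il6st, 11 genes in all. In MAC, all 11 had a PU.1 peak (81.3% of coding genes) and 10 a C/EBPβ peak (77.3%). In HP, 5 of the 11 had a PU.1 peak (44.1%), 3 a C/EBPβ peak (17.9%) and 4 a GFI1B peak (14.4%). C/EBPβ peaks were found at 3 of the 11 in MES, Kitl, Il3ra and Il6ra (7.83%), and at 3 in HB, Csf3, Il3ra and Il6ra (5.14%). Like the counts of the members, these are a description of a short list. In HP, GATA1 had a peak at 2 of the 11, Flt3l, the ligand of FLT3, and Epor, the erythropoietin receptor (2.23% of coding genes). GATA2 and RUNX1 each had one at Flt3l only (4.19% and 9.43%). Flt3l and Epor were also among the 4 genes with GFI1B. No member had a GATA1 or GATA2 peak, and at such low shares these counts do not set members and pathway genes apart. Both MAC factors were within 2 kb of the start site at 2 of the 11 genes, beside 6 of the 8 members and 29.9% of coding genes. MAC PU.1 was there at 7 of the 11 (50.0%) and MAC C/EBPβ at 4 (36.6%). The median number of lists was 4.00 in both sets.

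The coding genes with the most similar counts were named for 5 of the loci, by the sum over the 14 lists of the absolute differences in log2(count + 1), leaving out genes with overlapping windows. The nearest to Csf1r was Osgin1 (0.333 in all, with 1 MES C/EBPβ, 4 HP PU.1, 8 MAC C/EBPβ and 19 MAC PU.1 peaks), then Fndc7 (0.485). Csf2rb was closest to Zfp395 (0.181) and Tbc1d2 (0.290). For Flt3 they were Ndor1 and Rnf208 (0.263 each), which had identical counts. Csf1 had no close match, the nearest being C5ar2 (1.53) and Entpd7 (1.56), nor had Csf3r, with Itpr3 (1.00) and Slc29a2 (1.09). Csf2ra and Kit had 59 and 31 genes with identical counts, so none is singled out.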

How the data were processed

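The deposited values are peak positions (chromosome, start and end in base pairs), with no score, height or p-value, so the unit is a position on GRCm38 (mm10) and each list is taken as the authors called it. Per the study's methods, the authors trimmed reads, aligned them with Bowtie, kept uniquely placed reads, removed duplicates and called peaks with MACS against the input of the same stage, with a threshold chosen by eye for each list. Peaks were set to 400 bp around the summit, and some lists combined technical runs. The submitters' processing notes also name bedtools. The versions of these tools are not given in the sources used here, and read depth was not used.

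Every group was 1 factor at 1 stage with 1 list, so no test was made and no p-value is given. Shares carry exact Clopper-Pearson 95% intervals (scipy 1.17.1). Peaks were counted over the RefSeq gene span with 30 kb each side in Python 3.11.15, for all 21774 coding genes. The start sites were those of curated transcripts. Overlap meant at least 1 bp. Consensus letters were searched on both strands of the GRCm38 sequence, from which all printed sequences were read, and matches describe letters only. The paralogues were aligned with blastn 2.17.0. The code was tested on simulated data. Figures were drawn with matplotlib 3.10.9.

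The members, the pathway genes and the consensus letters were chosen with earlier results of these data known. Regions named are those with a peak of a list other than MAC C/EBPβ and MAC PU.1, those at or nearest a start site, and those shared by most lists. The second pair of MAC peaks in intron 1 of Kit was named in addition. All displayed sequences were chosen after they were seen. They came from these regions and from the MAC peaks 16.5 kb upstream of Csf2ra, 19 kb upstream of Kit and 11.2 kb downstream of the Flt3 start site. The 2 most similar coding genes were named for each member, except Csf2rb2 and the members with many ties. One pathway gene and the genes most similar to Csf2rb2 are not reported here. Alternatives tried were other window widths, assignment by nearest start site, an overlap of at least 200 bp, the lists without the long MAC lists, other consensus letters and a narrower search, and Csf2rb and Csf2rb2 taken as 1 locus.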

Additional observations from a re-analysis of the deposited data

How the results depend on the processing

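The 3 shares of overlap (HP PU.1 on MAC PU.1, and MAC C/EBPβ on MAC PU.1 and the reverse) kept their values within the counting interval under every window and overlap tried, and so did the consensus shares of MAC PU.1 and MAC C/EBPβ under every window and in the central 200 bp. The HP consensus counts were the same in the central 200 bp, and the other overlap shares were not recomputed. Counts depended on the window. The 32 combinations of locus and list became 20 with the gene span alone, 50 with 100 kb each side and 16 without the 2 long MAC lists, and stayed within 1.5 times of 32 with 10 kb each side (22), by nearest start site (31) and with Csf2rb and Csf2rb2 as 1 locus (30). The 126 merged regions became 52 with the gene span alone, 78 with 10 kb, 244 with 100 kb and 21 without the long lists, and 133 with an overlap of at least 200 bp. With the shorter letters GGAAGT, the share of MAC PU.1 peaks with a match rose to 66.7%, beside 67.6% of the whole list. With 4 strict forms of the C/EBP letters the share of MAC C/EBPβ peaks fell to 9.62%, beside 14.9%. Of the 24 values given per locus (lists, MAC PU.1 peaks and MAC C/EBPβ peaks), 18 moved by over 1.5 times with the gene span alone, 13 with 10 kb, 19 with 100 kb and 12 by nearest start site. No stricter peak threshold could be tried, since the positions carry no score. With 1 list per group, no value could be recomputed without a replicate.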
